A study of Mus musculus with 2 samples.

Results

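Integrins are the receptors that hold cells to the extracellular matrix and to each other, and the genes described here are the mouse integrin subunits with the adaptors that couple them to actin. The set was a fixed list of 33 genes: Itga1, Itga2, Itga3, Itga4, Itga5, Itga6, Itga7, Itga8, Itga9, Itga10, Itga11, Itga2b, Itgav, Itgal, Itgam, Itgax, Itgae, Itgad, Itgb1, Itgb2, Itgb3, Itgb4, Itgb5, Itgb6, Itgb7, Itgb8, Tln1, Vcl, Ilk, Ptk2, Pxn, Fermt2 and Fermt3. All 33 were found, with counts, among the 30084 genes of the transcript table. The cells were the stromal vascular cells of epididymal fat, which are what remains after adipocytes are removed from digested fat. Donors were male Mincle-deficient and wild-type C57BL/6J mice, and both genotypes were on high-fat feeding for 15 weeks. Mincle is a lectin receptor of myeloid cells, encoded by Clec4e. Suspensions were stained with hashtag antibodies and pooled, 20000 cells were loaded on a BD Rhapsody microwell system, and a transcript library and a hashtag library were made from the pool by TAS-Seq. Which genotype each hashtag marks, and how many mice it stands for, the labels do not say, so Mincle-deficient and wild-type cells were not compared, the deleted gene was not checked, and the hashtags (A0309, A0310, A0311 and A0312) were not treated as replicates of a group.

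An integrin is a pair of an alpha and a beta chain, and the pair decides what the cell can bind. Chains that pair with Itgb2 are confined to blood cells and bind other cells and complement, those that pair with Itgb1 bind collagen, laminin or fibronectin, and Itgav pairs bind proteins with the tripeptide motif of fibronectin. On the inside, talin (Tln1) and a kindlin (Fermt2 in most tissues, Fermt3 in blood cells) bind the beta tail and switch the receptor on. Vinculin (Vcl), integrin-linked kinase (Ilk), focal adhesion kinase (Ptk2) and paxillin (Pxn) then build the adhesion.

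The alpha genes of the leukocyte group lie close together on chromosome 7 of GRCm38. Itgam (55852 bases) ends 11.055 kb before Itgax, and Itgax ends 3.718 kb before Itgad, all on the plus strand, while Itgal lies 727.501 kb upstream of Itgam. The collagen receptor genes Itga2 and Itga1 are neighbours on chromosome 13, with 20.995 kb between them. Promoters are shown for Itgam and Itgax, because these neighbours differed across macrophage states, for Fermt3, because its level followed the blood cell classes, and for Itga1, because it set vascular from stromal classes. Each is the 150 bases before the RefSeq start (GRCm38.p6), written on the gene's own strand, with capitals marking matches to the core of a PU.1 site (GAGGAA, either strand) or of a RUNX site (TGTGGT, either strand).
Itgam, chr7:128062490-128062639, plus strand: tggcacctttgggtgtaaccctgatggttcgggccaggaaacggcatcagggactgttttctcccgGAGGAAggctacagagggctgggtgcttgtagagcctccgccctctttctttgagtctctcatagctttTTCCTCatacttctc
Itgax, chr7:128129400-128129549, plus strand: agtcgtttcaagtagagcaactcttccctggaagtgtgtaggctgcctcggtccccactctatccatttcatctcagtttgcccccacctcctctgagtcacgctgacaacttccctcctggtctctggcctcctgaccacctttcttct
Fermt3, chr19:7019470-7019619, minus strand: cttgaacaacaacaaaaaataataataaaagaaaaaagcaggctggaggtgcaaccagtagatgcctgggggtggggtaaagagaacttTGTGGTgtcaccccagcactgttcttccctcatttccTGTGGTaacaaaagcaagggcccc
Itga1, chr13:115101965-115102114, minus strand: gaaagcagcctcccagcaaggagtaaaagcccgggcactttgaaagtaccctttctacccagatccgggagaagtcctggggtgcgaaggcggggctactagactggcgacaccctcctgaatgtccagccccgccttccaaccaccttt
The windows of Itgam and Fermt3 each hold 2 matches, of the PU.1 core and of the RUNX core in that order, and those of Itgax and Itga1 hold none. Of the 33 genes, 23 had a promoter in the table, and the first one listed was counted for each gene, in the set and over all genes. In the set, 7 of the 23 held the PU.1 core, 3 the RUNX core and none a TATA box (TATAAA, either strand) or a CArG box. Across the 27025 promoters of the table, windows of the same length held them in 14.4%, 8.53%, 8.08% and 0.884%. The other promoters listed for Itga3, Itgb6 and Ilk were not counted, and of these both that of Itga3 and that of Itgb6 held the PU.1 core, that of Itga3 also the RUNX core and that of Itgb6 also a CArG box. These are matches of letters and say nothing of binding.

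After the authors' 367 doublets and the 182 cells that failed the filter, 15192 cells remained, with 3255, 3475, 3857 and 4605 in A0309 to A0312 and a median of 34641.5 counts per cell (6596 to 473807). Clusters were named from marker genes with the 33 genes left out of the clustering, and the classes used were 8597 macrophage-like, 3521 fibroblast-like, 1140 endothelial-like, 403 T-cell-like, 236 mural-like, 177 dendritic-cell-like and 150 monocyte-like cells. Median counts per cell ran between 10488 in T-cell-like and 39674 in macrophage-like cells. All 8 macrophage markers, all 7 fibroblast, endothelial and mural markers, and all 8 T cell markers were at 5 CPM (counts of a gene per 1000000 counts of the class) or more in the class so named. The classes were named from these same lists, so this describes them and is no separate check of the names. T-cell-like cells also held all 7 NK cell markers at that level. Monocyte-like cells were named from Ccr2, Ly6c2 and Plac8, while F13a1, Fn1, Chil3 and Vcan of the same list did not meet the naming rule. Monocyte-like cells carried macrophage markers at a median of 100% of the macrophage-like level, so RNA of the macrophage kind was as high in them as in macrophage-like cells. Conversely, the macrophage-like class held 2 clusters of 655 and 278 cells, less those left out, whose 10 leading genes each held 1 monocyte marker (Ccr2 in the larger, F13a1 in the smaller) and no macrophage marker. The leading genes of the smaller also held Cbr2, Cd209f, Ccl8, Lyve1 and Cd163, which are listed markers of the resident macrophage state. RNA of macrophage markers in the other classes, as a median percent of the macrophage-like level, was 18.4% in dendritic-cell-like, 35.9% in T-cell-like, 13.4% in endothelial-like, 12.2% in mural-like and 3.32% in fibroblast-like cells. The hashtags were weak in stroma: 44.7% of fibroblast-like cells and 28.4% of mural-like cells had a second hashtag with over 25% of their tag counts, against 3.64% of macrophage-like cells.

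Each level is the sum of a gene's counts over the cells of a class, per 1000000 counts of that class (CPM). Where 4 values are given they are those of A0309, A0310, A0311 and A0312 in that order. Levels are not divided by gene length, so only levels of the same gene are compared. Intervals are exact 95% Poisson intervals and cover counting error only. A gene was called higher or lower where the log2 ratio of CPM + 1 was at least 1 in size, with an equal sign in the pool and in each hashtag in which both classes had 20 or more cells, among genes at 5 CPM or more in either class. There is 1 pooled library and no replicate of any group, so no test was possible and a call is a statement of size in these cells.

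The class with the highest level differed among the genes of the set. Of the 33 genes, 10 were highest in mural-like cells, 7 in fibroblast-like, 5 in endothelial-like, 4 in T-cell-like, 3 in dendritic-cell-like and 2 each in macrophage-like and monocyte-like cells. For 16 of the 33 the highest class stood above every other class in every hashtag and beyond the counting intervals, and this group held 5 mural, 5 fibroblast, 3 endothelial, 2 T-cell and 1 dendritic-cell gene. The order was taken for the 33 genes only. No share over all genes stands beside these counts, and whether they are unusual was not tested. None of the genes highest in macrophage-like or monocyte-like cells stood apart from the other of those 2 classes. Itgb6, a chain that activates latent TGF-beta in epithelium, was at 0.75 CPM or less in all 7 classes, which could not be ordered at this depth.

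**Figure D1:**
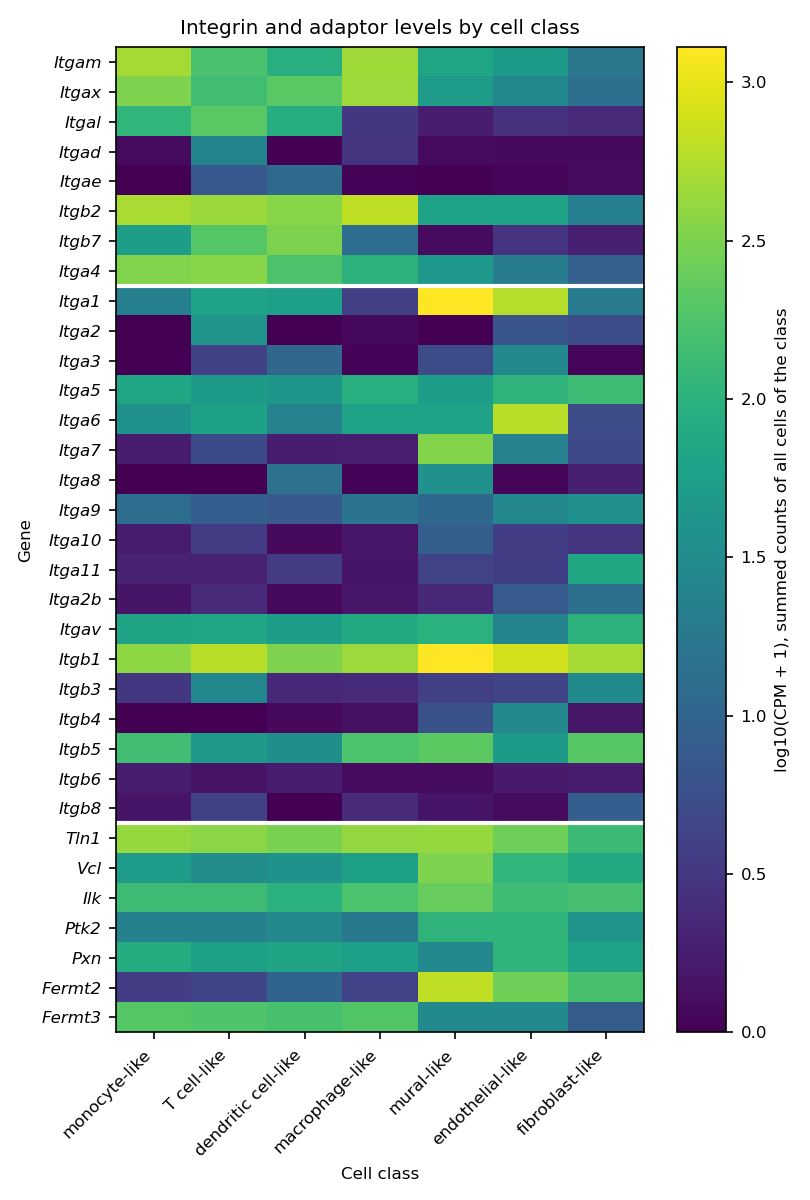
Level of each gene in 7 cell classes, as log10 of CPM + 1 by colour, with genes in rows (leukocyte integrins, other integrins and adaptors, divided by white lines) and classes in columns. Itgam, Itgax, Itgb2 and Fermt3 are bright in the blood cell columns, Itga1, Itga7 and Fermt2 in the mural-like column, and Itga11 and Itgb3 in the fibroblast-like column. Not all are particular to 1 column: Itga1 is also high in endothelial-like cells (587 CPM), and Itgb3 in T-cell-like cells is at 94.3% of the fibroblast-like level.

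Macrophage-like against fibroblast-like cells asks which lineage holds each subunit. Of 33 genes, 23 were tested for size, 8 were called higher, 8 lower and 7 neither, and 10 did not reach 5 CPM in either class. The background over all 12099 genes was 13.4% called higher and 18.8% called lower. The median log2 ratio was -0.21 over the 23 genes and -0.03 over all genes. The genes that were higher in macrophage-like cells were the leukocyte chains Itgam, Itgax, Itgb2, Itga4 and Itgb7, the laminin receptor chain Itga6, talin and the kindlin of blood cells, and those that were lower were collagen, tenascin and fibrinogen receptor chains, an Itgav partner, a kindlin and the focal adhesion kinase.

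Itgam, the alpha chain of a complement receptor, had 447, 548, 455 and 438 CPM in macrophage-like cells, against 18.0, 13, 15.7 and 18.5 CPM in fibroblast-like cells. Its partner Itgb2 had 640, 762, 584 and 618 CPM in macrophage-like cells, against 24.0, 17.8, 23.0 and 20.7 CPM in fibroblast-like cells. In both genes the lowest macrophage-like hashtag lay far above the highest fibroblast-like one, with log2 ratios of 4.78 for Itgam and 4.86 for Itgb2. Itgax, the alpha chain used as a marker of dendritic cells and of fat macrophages in obesity, had 352, 471, 442 and 514 CPM in macrophage-like cells, against 13.4, 11.7, 14.9 and 13.1 CPM in fibroblast-like cells (log2 ratio 5.0). The fibroblast-like levels of Itgam, Itgax and Itgb2 were 3.4%, 2.9% and 3.3% of the macrophage-like ones, beside the 3.32% of the macrophage markers. The other genes called higher were Itga4 (log2 3.45), Itga6 (3.62), Itgb7 (2.84), Tln1 (1.60) and Fermt3 (4.49). Fermt3, the kindlin of blood cells, had 179, 192, 185 and 180 CPM in macrophage-like cells, against 6.13, 7.16, 8.24 and 7.5 CPM in fibroblast-like cells.

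The kindlins ran in opposite directions. Fermt2, the kindlin of adherent tissue cells, had 3.49, 3.07, 3.38 and 3.05 CPM in macrophage-like cells, against 176, 150, 159 and 152 CPM in fibroblast-like cells, a log2 ratio of -5.24. Itga11, the collagen receptor chain of fibroblasts, had the lowest ratio among the 23 genes, at -5.57, with 0.456, 0.389, 0.432 and 0.630 CPM in macrophage-like cells against 74.7, 64.0, 65.3 and 75.9 CPM in fibroblast-like cells. The groups did not overlap in either gene. The remaining genes called lower were Itgb3 (log2 -3.70), Itga2b (-3.17), Itga1 (-2.28), Itgb8 (-1.79), Itga9 (-1.21) and Ptk2 (-1.21). Itga2b and Itgb3 form the fibrinogen receptor of platelets, and of the 4 platelet or megakaryocyte markers analysed here 2 reached 5 CPM in fibroblast-like cells. Pf4, among those 4, was also a leading gene of a macrophage-like cluster of 1295 cells, and the part of platelet RNA was not tested.

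The 7 genes called neither way were Itgb1, Itga5, Itgav, Itgb5, Vcl, Ilk and Pxn. Itgb1 had 455 CPM in macrophage-like and 497 CPM in fibroblast-like cells. Ilk had 171 and 156 CPM, Pxn 56.5 and 63.1 CPM, Vcl 57.3 and 77.0 CPM, Itgav 79.2 and 99.4 CPM, Itgb5 171 and 198 CPM, and Itga5, the fibronectin receptor chain, 91.3 and 136 CPM in macrophage-like and fibroblast-like cells. Their log2 ratios lay between -0.57 and 0.13. Ilk overlaps Rrp8 and Taf10 on the other strand, and no source used here says whether counting was stranded, so its level is uncertain. The same limit holds for other genes of the set with an overlapping gene on the other strand. Among them are Tln1 (Creb3), Vcl (Ap3m1), Fermt3 (Trpt1), Itga4 (Cerkl), Itga7 (Mettl7b) and Itgae (Haspin). Of the calls, those of Itga9, Itgb7, Tln1 and Ptk2 were lost when hashtags were set by a rule on tag counts, and those of Itga1, Itga2b, Itgb7 and Itgb8 with a filter at 20 CPM.

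**Figure D2:**
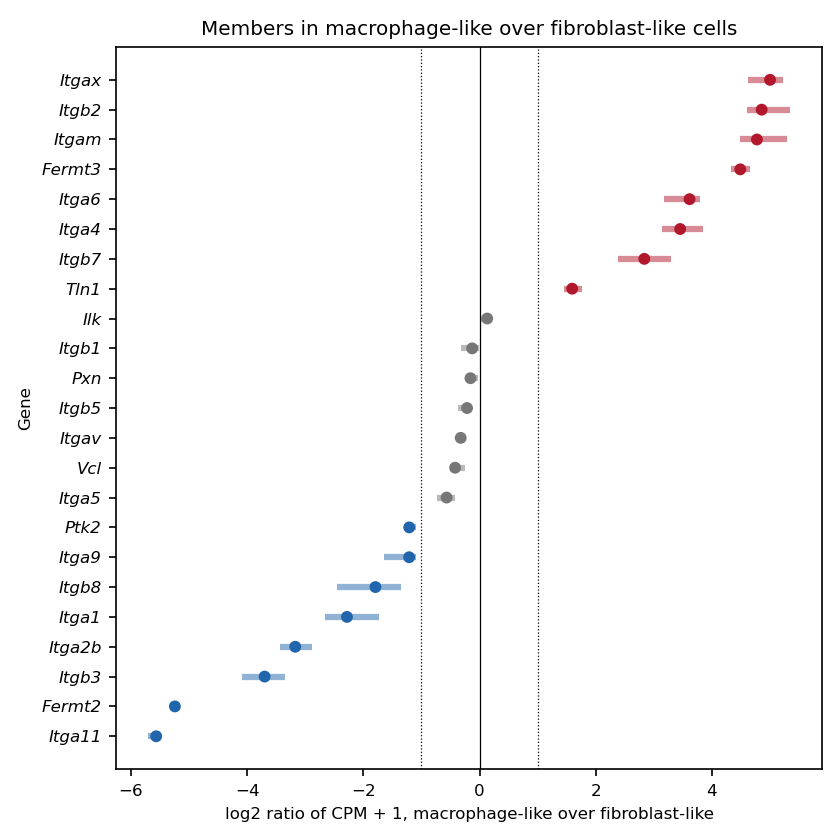
Log2 ratio of CPM + 1, macrophage-like over fibroblast-like, for the 23 genes tested, with points for the pool, bars for the range over 4 hashtags, and dotted lines at the size rule of 1. Itgax, Itgb2 and Itgam lie at the top near 5, and Fermt2 and Itga11 at the bottom below -5.

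Related adhesion genes were counted in the same way. Of 35 adaptors and regulators outside the set, 32 were tested, 5 were higher and 8 lower. Parvb, a parvin of the Ilk complex, had 51.1 CPM in macrophage-like and 3.01 CPM in fibroblast-like cells (log2 3.70), and its relative Parva 2.67 and 105 CPM (log2 -4.85). Dab2, an endocytic adaptor, and Actn1, an actin crosslinker, were also higher (log2 2.51 and 1.99), while Tns2 and Tgfb1i1 were lower (log2 -5.42 and -4.99). Of 14 counter-receptors and co-receptors, 11 were tested, 2 were higher (Icam2, log2 1.66, and Cd82, log2 1.43) and 5 lower, led by Thy1 (log2 -6.11), Jam2 (-4.99) and Jam3 (-4.81).

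Monocyte-like against macrophage-like cells asks which leukocyte subunits differ within the myeloid lineage. Here 19 genes of the set were tested, 4 were called higher and none lower, where 3.01% of 10939 genes were higher and 0.85% lower. Median log2 ratios were -0.15 over the 19 genes and 0.01 over all genes. Itgal, the alpha chain of the lymphocyte function antigen, had 211, 46.5, 80.4 and 126 CPM in monocyte-like cells, against 2.63, 3.24, 1.56 and 1.83 CPM in macrophage-like cells (log2 5.12). Itga4, which binds Vcam1, had 341, 279, 295 and 385 CPM in monocyte-like cells, against 84.0, 93.8, 94.7 and 114 CPM in macrophage-like cells (log2 1.74). Itgb7, a partner of Itga4, had 113, 46.5, 47.1 and 42.9 CPM in monocyte-like cells, against 17.6, 14.6, 10.7 and 9.01 CPM in macrophage-like cells (log2 2.07). Every monocyte-like hashtag was above every macrophage-like one in these 3 genes, and Itgal varied most among the monocyte-like hashtags, which held 23 to 56 cells. Itga1 was the last gene called, with 18.0, 23.2, 17.0 and 24.0 CPM in monocyte-like cells and 3.61, 2.47, 2.39 and 3.01 CPM in macrophage-like cells (log2 2.50). Its call was lost at Leiden resolution 0.5, and that of Itga4 at resolution 2.0. All 4 calls were kept when clusters with more leading markers of another class were left out, the 2 macrophage-like ones with a leading monocyte marker among them, as were the 16 for macrophage-like over fibroblast-like cells.

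Itgam (488 CPM in monocyte-like, 469 CPM in macrophage-like cells), Itgb2 (525 and 646 CPM), Fermt3 (196 and 184 CPM) and Tln1 (416 and 402 CPM) had hashtag ratios that spanned 0 on the log2 scale. Itgax had 267, 155, 605 and 184 CPM in monocyte-like cells, which overlaps the 352 to 514 CPM of macrophage-like cells, and was not called. In the adaptor list 28 genes were tested, Rasgrp2, an activator of the Rap1 switch of integrins, was higher with 40.9 CPM in monocyte-like and 6.72 CPM in macrophage-like cells (log2 2.44), and none was lower. Of the counter-receptors 8 were tested and none was called.

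T-cell-like against macrophage-like cells asks which leukocyte subunits are lymphoid. In this comparison 23 genes were tested, 8 were higher, 3 lower and 12 neither, where 10.4% of 11862 genes were higher and 2.85% lower. The median log2 ratio was -0.03 over the 23 genes and 0.29 over all genes. Itgal had 180, 218, 254 and 189 CPM in T-cell-like cells (log2 5.98 over the macrophage-like level given above). Itgb7 had 217, 175, 245 and 167 CPM in T-cell-like cells (log2 3.86), and Itga4 had 269, 273, 466 and 388 CPM (log2 1.84), each above all macrophage-like hashtags. The collagen receptor chains were also higher. Itga2 had 50.3, 49.4, 46.5 and 28.8 CPM in T-cell-like cells, against 0.329, 0.194, 0.122 and 0.237 CPM in macrophage-like cells (log2 5.08), and Itga1 had 34.2, 66.2, 107 and 58.3 CPM in T-cell-like cells (log2 4.05). Itga2 is an NK cell marker in C57BL/6 mice, and the class held NK cell markers at a summed 1261 CPM beside 2181 CPM of T cell markers.

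Itgb3 (27.6 CPM in T-cell-like, 1.33 CPM in macrophage-like cells, log2 3.62), Itgae, which binds E-cadherin with Itgb7 (6.20 and 0.0581 CPM, log2 2.77), and Itgad (24.2 and 2.06 CPM, log2 3.04) completed the genes that were higher. Itgad had 7.68, 24.2, 50.2 and 22.5 CPM in T-cell-like cells, against 3.10, 1.35, 2.13 and 1.88 CPM in macrophage-like cells. Its call was lost on centring on the median of all genes and when clusters led by another class were left out, and that of Itgae without A0309. The genes that were lower in T-cell-like cells were Itgam (log2 -1.50), Itgax (-1.67) and Itgb5 (-1.89). Itgam stood at 35.3% and Itgax at 31.2% of the macrophage-like level, beside 35.9% for the macrophage markers, and Itgb5 at 26.6%, and the part of macrophage RNA in these T-cell-like levels was not tested. Fermt3 (180 and 184 CPM), Tln1 (367 and 402 CPM) and Itgb2 (433 and 646 CPM in T-cell-like and macrophage-like cells) were not called. In the adaptor list 29 genes were tested, 3 were higher (Parvg, log2 3.07, Rasgrp2, 2.52, and Vasp, 1.93) and 2 lower (Tns3, -1.63, and Dab2, -1.34). Of the counter-receptors 10 were tested and 3 were higher (Thy1, log2 7.56, Cd82, 2.66, and Icam2, 2.32).

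Dendritic-cell-like cells had the highest Itgb7 of all classes, with 383, 270, 290 and 293 CPM, above the 167 to 245 CPM of T-cell-like cells. They also held Itgae at 11.1 CPM (8.42 to 14.3) and Itgal at 85.0 CPM (77.3 to 93.2). Itgax, the usual marker of this lineage, had 121, 146, 429 and 198 CPM in dendritic-cell-like cells and overlapped macrophage-like and monocyte-like cells, at 45.5% of the macrophage-like level beside 18.4% for the macrophage markers. Itga8 was at 13.3 CPM (10.4 to 16.8) and Itga3 at 9.75 CPM (7.28 to 12.8) in this class, while macrophage-like cells had 0.0702 and 0.0775 CPM. Clusters inside the lymphoid and dendritic classes differed, as a description of small groups. The 155 cells led by Clec9a had Itgb7 at 342 CPM and Itgal at 93.7 CPM, whereas the 22 cells led by Ccr7 had Itgb7 at 6.04 CPM, no Itgal count, and Itga6 at 113 CPM beside 14.1 CPM. Among T-cell-like cells, the 29 cells led by the gamma-delta receptor genes Trgc1 and Trdc had Itgb7 at 724 CPM and Itgae at 40.8 CPM with Itga4 at 44.2 CPM, and the other 374 cells had 167, 4.55 and 370 CPM. The Itgae level of the 29 cells rested on 12 counts in 6.90% of them (21.1 to 71.2 CPM).

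**Figure D3:**
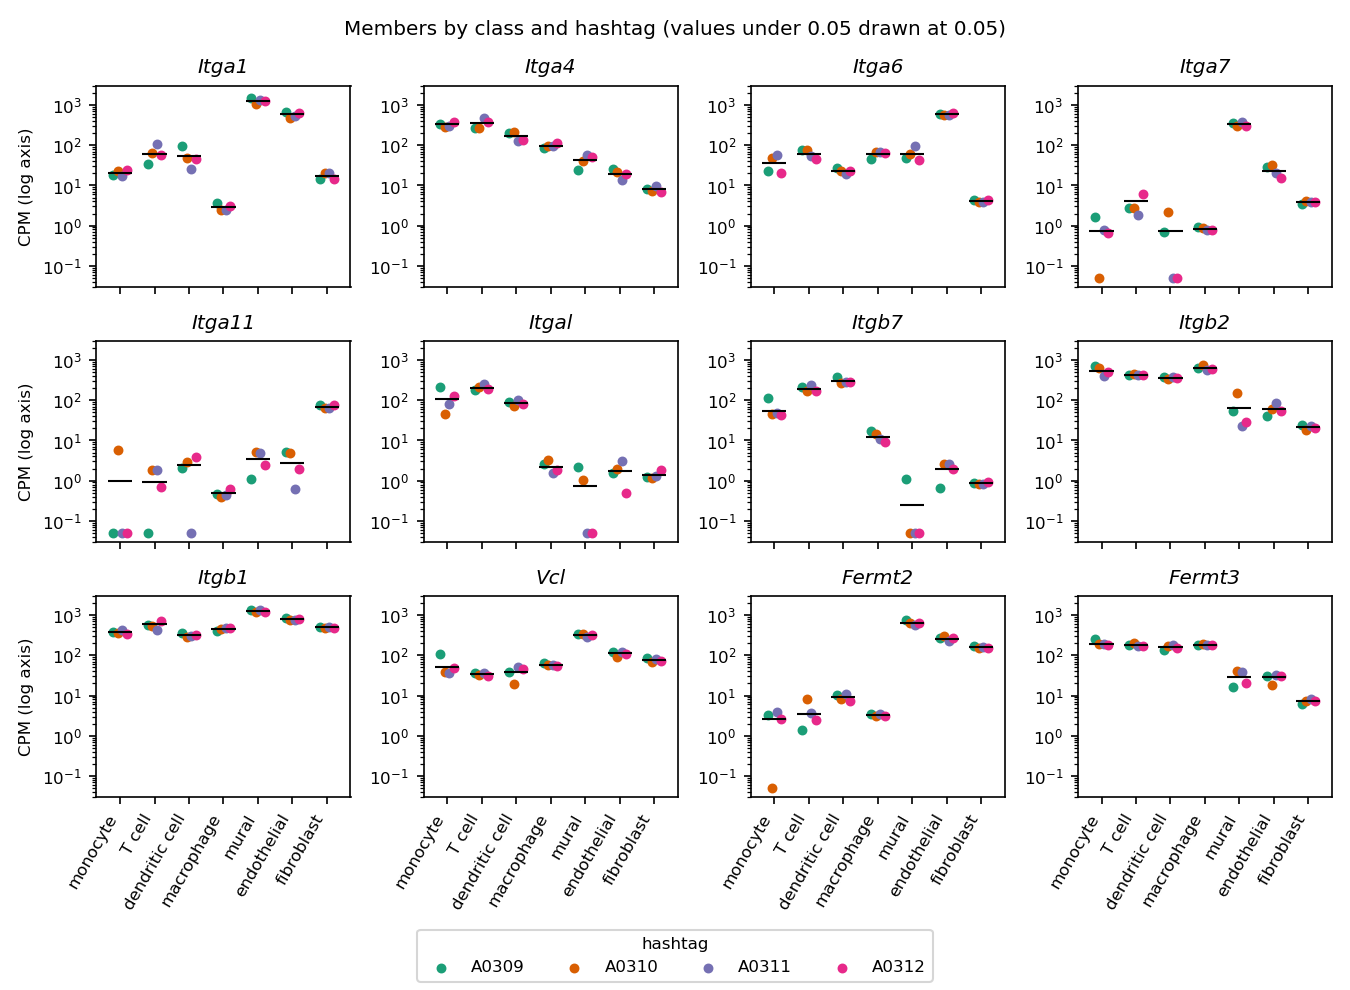
Level of 12 genes in 7 classes on a log axis of CPM, with a point for each hashtag and a line for the pool. The hashtags of a class lie close together for Itgb1, Fermt3 and Itga6, Fermt2 and Itga7 separate mural-like cells from blood cells, and Itgal and Itgb7 are higher in the monocyte-like, dendritic-cell-like and T-cell-like columns than in macrophage-like cells.

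Endothelial-like against fibroblast-like cells asks how vessel lining and stroma differ. The rule could be applied to 26 genes, of which 8 were higher, 5 lower and 13 neither, where 12.6% of 12552 genes were higher and 9.74% lower. Their median log2 ratio was 0.74 over the 26 genes and 0.28 over all genes. Itga6 had the largest ratio, followed by Itga1, Itga3 and Itgb4. Itga6 had 587, 584, 559 and 634 CPM in endothelial-like cells, against 4.28, 3.88, 3.89 and 4.39 CPM in fibroblast-like cells (log2 6.86), and stood above every other class. Itga3 had 42.7, 29.6, 25.4 and 25.6 CPM in endothelial-like cells, against 0.0867, 0, 0.272 and 0.0685 CPM in fibroblast-like cells (log2 4.81). Itgb4, the laminin receptor chain that pairs with Itga6, had 34.3, 32.0, 28.6 and 20.6 CPM in endothelial-like cells, against 0.838, 0.452, 0.423 and 0.583 CPM in fibroblast-like cells (log2 4.21). Itga1 had 679, 493, 544 and 627 CPM in endothelial-like cells, against 14.4, 20.6, 20.5 and 14.7 CPM in fibroblast-like cells (log2 4.98). The groups did not overlap in any of these 4 genes. Itga1 holds Pelo on the same strand within its bounds, so reads could be shared.

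Ptk2 was higher at 107 CPM in endothelial-like and 41.4 CPM in fibroblast-like cells (log2 1.35), a call lost on centring. Itga7 was called at 23.2 and 3.82 CPM (log2 2.33), and the call rested on 1 cluster. The 241 cells led by Plvap, Selp and Ackr1, with the mural marker Rgs5 among their leading genes, had Itga7 at 72.9 CPM, Itgb4 at 82.9 CPM and Itga6 at 219 CPM, while the other 899 cells had 4.91, 7.97 and 729 CPM, and without those 241 cells Itga7 was not called. Itgam (48.9 and 16.1 CPM, log2 1.54) and Fermt3 (28.6 and 7.23 CPM, log2 1.84) were also called higher. They stood at 10.4% and 15.5% of the macrophage-like level, beside 13.4% for the macrophage markers, both signs turned under the tag rule (log2 -1.55 and -1.19), and the part of macrophage RNA was not tested.

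The genes that were lower in endothelial-like cells were matrix receptor chains, not all of them particular to stroma. Itgav and Itgb5 stood at 79.7% and 86.1% of the fibroblast-like level in macrophage-like cells, and Itgb3 at 94.3% in T-cell-like cells. Itga11 (2.80 CPM in endothelial-like, 69.7 CPM in fibroblast-like cells, log2 -4.22) and Itgb3 (3.4 and 29.3 CPM, log2 -2.78) had the lowest ratios. Itgav had 23.9, 32.2, 23.9 and 19.0 CPM in endothelial-like cells, against 100, 97.2, 102 and 97.6 CPM in fibroblast-like cells (log2 -2.0). Its beta partners were lower too. Itgb5 had 48.9 and 198 CPM (log2 -2.0) and Itgb8 0.233 and 7.43 CPM (log2 -2.77). In every hashtag Itgav was lower in endothelial-like cells than in each of the other classes. In the adaptor list 32 genes were tested, 12 were higher, led by Parvb (log2 4.72), Rasgrp2 (3.23) and Lims2 (2.38), and 2 lower (Src, -2.40, and Apbb1ip, -1.82). Of the counter-receptors 12 were tested, 3 were higher (Icam2, log2 7.27, F11r, 6.82, and Jam2, 2.0) and 2 lower (Thy1, -3.07, and Vcam1, -1.64).

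Mural-like cells, which are pericytes and smooth muscle by their markers, had the highest level of 10 of the 33 genes. Against fibroblast-like cells 25 genes were tested, 12 were higher, 4 lower and 9 neither, where 8.16% of 12665 genes were higher and 5.57% lower. The median log2 ratio was 1.53 over the 25 genes and 0.36 over all genes. Itga1 had 1473, 1078, 1307 and 1250 CPM in mural-like cells (log2 6.09, and 5.64 or more in every hashtag). Itga7, the laminin receptor chain of muscle, had 363.0, 307.7, 377.5 and 304.2 CPM in mural-like cells, against 3.41, 4.12, 3.77 and 3.98 CPM in fibroblast-like cells (log2 6.13). Itga8 had 12.8, 16.4, 56.4 and 54.3 CPM in mural-like cells, against 0.607, 1.20, 1.06 and 0.617 CPM in fibroblast-like cells (log2 4.31). The mural-like hashtags of Itga8 were uneven, and none overlapped the fibroblast-like ones.

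Of the adaptors, Tln1, Vcl, Ptk2, Fermt2 and Fermt3 were called higher, and so was Itgb1. Itgb1 had 1321, 1237, 1381 and 1232 CPM in mural-like cells, against 501, 493, 515 and 476 CPM in fibroblast-like cells (log2 1.37). Fermt2 had 756, 655, 560 and 645 CPM in mural-like cells (log2 2.03), and Vcl had 339, 340, 281 and 329 CPM, against 87.6, 68.3, 80.9 and 71.2 CPM in fibroblast-like cells (log2 2.05). Tln1 (420 and 132 CPM, log2 1.66) and Ptk2 (106 and 41.4 CPM, log2 1.33) were also called, but Ptk2 not after centring. Ilk (241 and 156 CPM, log2 0.63) and Pxn (27.1 and 63.1 CPM, log2 -1.19) were not, and the mural-like level of Pxn was the lowest of the 7 classes. Itga6 (60.9 and 4.1 CPM, log2 3.6) and Itga4 (44.2 and 8.09 CPM, log2 2.32) were higher. The call of Itga4 was lost when cells with a strong second hashtag were left out.

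Itgam (67.7 and 16.1 CPM, log2 2.0) and Fermt3 (29.0 and 7.23 CPM, log2 1.87) were called as well. In mural-like cells they stood at 14.4% and 15.8% of the macrophage-like level, beside 12.2% for the macrophage markers, and were lost on centring, and the part of macrophage RNA was not tested. The genes that were lower in mural-like cells were Itga11 (3.38 and 69.7 CPM, log2 -4.01), Itgb3 (2.90 and 29.3 CPM, log2 -2.96), Itga2b (1.21 and 12.9 CPM, log2 -2.65) and Itgb8 (0.483 and 7.43 CPM, log2 -2.51). In the adaptor list 33 genes were tested, 10 were higher, led by Rasgrp2 (log2 5.11), Tns1 (2.72) and Fblim1 (2.60), and Apbb1ip was lower (-2.17). Of the counter-receptors 12 were tested, 2 were higher (F11r, log2 3.10, and Icam2, 2.36) and 3 lower (Jam2, -3.03, Vcam1, -1.60, and Icam1, -1.60).

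Fibroblast-like cells stood above every other class in every hashtag for Itga5, Itga9, Itga11, Itga2b and Itgb8. Itga11 had 69.7 CPM, against 3.38 CPM in the next class, mural-like cells. For Itga5 the lead was small, with 160, 125, 132 and 124 CPM in fibroblast-like cells and 113, 94.2, 112 and 103 CPM in endothelial-like cells, the next class. That lead was not shared by all fibroblast-like sub-clusters. Over 12 of them Itga5 ran between 48.4 and 617 CPM with a median of 97.8 CPM, below the 106 CPM of endothelial-like cells. Itgb8, which activates latent TGF-beta with Itgav, had 9.68, 6.65, 6.55 and 6.79 CPM in fibroblast-like cells, and T-cell-like cells followed with 3.10 CPM. Itga10, a chondrocyte collagen receptor, did not order the classes: it had 32 counts in mural-like cells (7.74 CPM, 5.29 to 10.9) and ranged between 0.836 and 16.5 CPM over their hashtags.

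Macrophage-like cells were clustered again, and 5 states could be named. Lipid-associated-like cells (707 cells, named from Gpnmb, Fabp5 and Mmp12) were set against resident-like cells (133 cells, named from Lyve1, Folr2, Cd163, Cbr2, Cd209f, Gas6 and Ccl8) to ask how the set varies between macrophage states. Trem2, Cd9, Lpl, Spp1 and Cd63, also listed for the lipid-associated state, did not meet the naming rule there, nor did Timd4 in resident-like cells. Median counts per cell were 71249 and 18905. Here 17 genes of the set were tested, 5 were higher, 1 lower and 11 neither, where 3.48% of 10986 genes were higher and 6.55% lower. Medians of the log2 ratio were 0.40 over the 17 genes and -0.25 over all genes.

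Itgax had 1039, 1093, 1064 and 1156 CPM in lipid-associated-like cells, against 19.2, 7.11, 14.2 and 51.7 CPM in resident-like cells, a log2 ratio of 5.44 (2.59 at Leiden resolution 2.0). Itgam, its neighbour on the chromosome, had 449, 503, 423 and 426 CPM in lipid-associated-like cells, against 329, 419, 555 and 248 CPM in resident-like cells, where the groups overlap (log2 0.22). Itgb2, the beta chain that both use, had 981, 878, 817 and 906 CPM in lipid-associated-like cells, against 210, 277, 272 and 201 CPM in resident-like cells (log2 1.93). With every cell thinned to 6000 counts, 74.7% of lipid-associated-like and 5.26% of resident-like cells had a count of both Itgam and Itgax, while 6.22% and 65.4% had Itgam alone. Unthinned, Itgax was detected in 95.3% of lipid-associated-like and 20.3% of resident-like cells, beside 20.6% of fibroblast-like cells, a class that should lack the gene, at a median of 35516 counts. After thinning, 9.77% of resident-like and 5.91% of fibroblast-like cells had an Itgax count, and the levels of the classes were 24.3 and 13.2 CPM.

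Vcl (90.6 and 26.3 CPM, log2 1.75), Itgav (68.9 and 18.1 CPM, log2 1.87) and Itgb7 (18.7 and 5.47 CPM, log2 1.60) were also higher in lipid-associated-like cells. Itgb7 rested on 16 counts in resident-like cells. Itga9, a tenascin receptor chain, was the 1 gene called lower, with 3.97, 6.92, 5.07 and 5.15 CPM in lipid-associated-like cells and 19.2, 19.0, 37.3 and 32.7 CPM in resident-like cells (log2 -2.17). At resolution 2.0 the calls of Itgav, Itgb2, Itgb7 and Vcl were lost and those of Itgax and Itga9 kept. The call of Itga9 was lost at resolution 0.5 and with means over cells, and that of Itgb7 under both of these, with a pseudocount of 5 CPM and with a filter at 20 CPM. Those of Itgav and Vcl were lost when cells with a strong second hashtag were left out, and that of Itgav also when the set was kept in the clustering. Where clusters with leading markers of another class were left out, the 278 cells led by Cbr2 and Cd209f among them, no resident-like group remained to compare. Tln1, Ilk, Itgb1 and Fermt3 had log2 ratios between 0.03 and 0.40. In the adaptor list 29 genes were tested, 4 were higher, led by Lims2 (log2 2.98), Actn1 (2.84) and Ptk2b (2.05), and 2 lower (Tns1, -4.20, and Dab2, -3.98). Of the counter-receptors 7 were tested and 2 were lower (Cd81, log2 -3.76, and Icam1, -2.12).

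Across all 15 macrophage-like sub-clusters Itgb1 ran between 362 and 532 CPM. Itgax ran between 24.3 and 1099 CPM. The second highest, 911 CPM, was in the sub-cluster led by Sstr2 and Dcstamp, a gene needed for osteoclast fusion, which also had the highest Tln1 at 659 CPM. Itgb7 ran between 1.82 and 86.0 CPM and Itgal between 0.443 and 25.1 CPM, both highest in a sub-cluster of 370 cells led by Cd209a and Plbd1. By the naming rule it was MHC class II high macrophage-like. All 7 monocyte markers reached 5 CPM in it, summing to 2091 CPM, while Cd209a is a listed dendritic cell marker. Plbd1 was a leading gene of both the monocyte-like cluster and the dendritic-cell-like cluster with Clec9a. Itgb2 and Itgam were highest in 241 cells led by Serpinb9b, Uchl1 and Gclm, at 1773 and 843 CPM. Of those cells 170 carried A0310, 45 carried A0312 and the others 10 and 16, so their values were essentially those of 2 hashtags: Itgb2 1805 and 1803 CPM, and Itgam 923 and 611 CPM in A0310 and A0312.

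**Figure D4:**
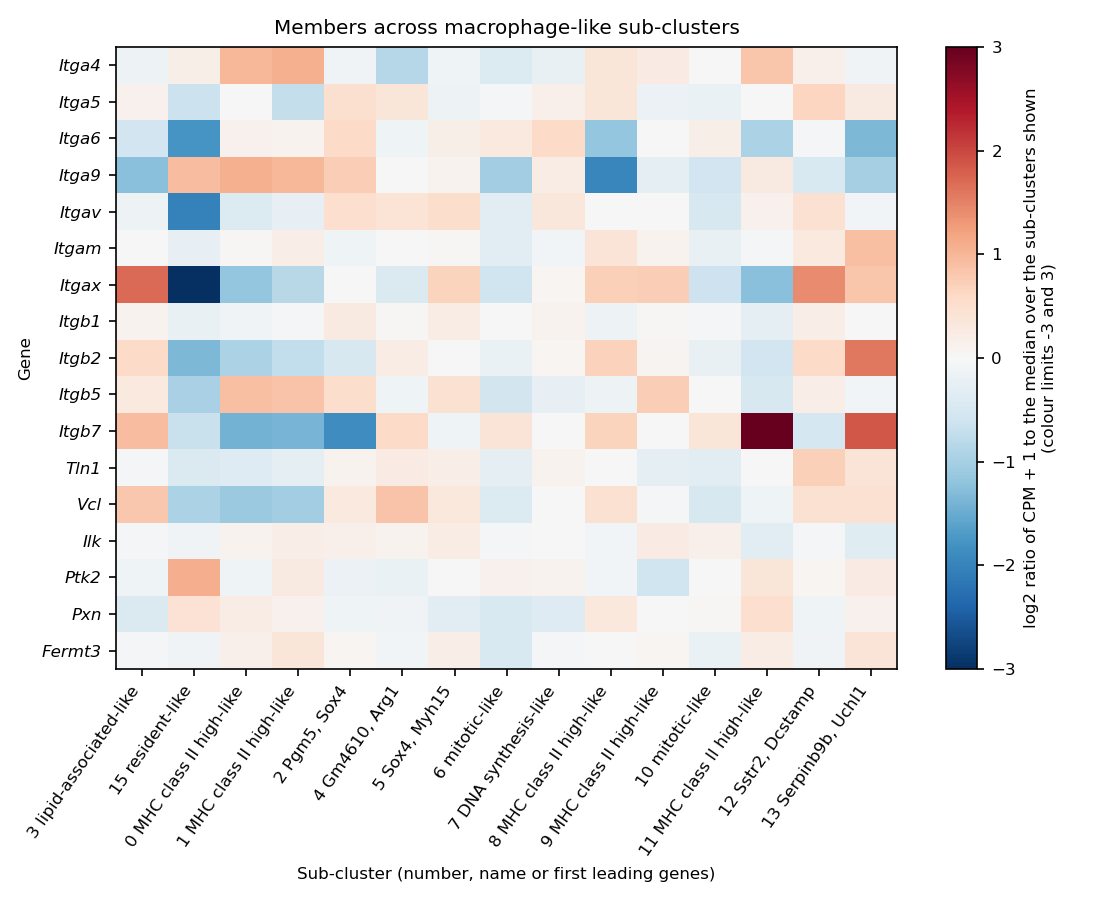
Log2 ratio of CPM + 1 to the median over 15 macrophage-like sub-clusters, by colour between -3 and 3, with genes in rows and sub-clusters (number, name or leading genes) in columns. Itgax is at the colour limit on the low side in resident-like cells and high in the lipid-associated-like and the Sstr2-led cells, and Itgb7 is high in sub-clusters 11 and 13.

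Fibroblast-like cells gave progenitor-like cells (926 cells, named from Dpp4, Pi16 and others) and preadipocyte-like cells (953 cells, named from Fabp4, Col15a1, Cxcl14 and others), and their comparison asks how the set varies between fibroblast states. Pparg and Cd36, also listed for the preadipocyte state, met the naming rule in neither of its sub-clusters. Lpl met it only in the sub-cluster of 547 cells, and Tnc only in that of 406 cells. The preadipocyte-like group could be named only after the naming reference had been changed from the mean to the median of the other sub-clusters, a choice made after clusters and markers were seen. Between these states 23 genes were tested, 1 was higher, 1 lower and 21 neither, where 2.52% of 11392 genes were higher and 2.42% lower. The median log2 ratio was 0.08 over the 23 genes and 0.00 over all genes.

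The genes called were the neighbours Itga2 and Itga1. Itga2 had 13.6, 10.8, 8.55 and 16 CPM in Dpp4-progenitor-like cells, against 0.913, 0.835, 0.689 and 0.121 CPM in preadipocyte-like cells (log2 2.99). Itga1 had 4.15, 6.62, 4.05 and 5.87 CPM in Dpp4-progenitor-like cells, against 26.4, 35.6, 39.9 and 23.2 CPM in preadipocyte-like cells (log2 -2.43). These collagen receptor chains ran in opposite directions with no overlap of hashtags. With 1 call each way among 23 genes, the set as a whole was near the shares over all genes. A filter at 20 CPM removed Itga2, and the call of Itga1 was lost under the tag rule. Pxn (96.2 and 45.2 CPM, log2 1.07), Itga5 (175 and 89.2 CPM, log2 0.97), Itgb3 (56.1 and 20.9 CPM, log2 1.38) and Itga11 (94.9 and 56.4 CPM, log2 0.74) were higher in the pool of Dpp4-progenitor-like cells and missed the size rule, Pxn by the value of 0.97 in 1 hashtag. In the adaptor list 31 genes were tested, 2 were higher (Zyx, log2 1.51, and Lims2, 1.45) and 3 lower (Fblim1, -2.75, Tns3, -1.93, and Apbb1ip, -1.07). Of the counter-receptors 10 were tested and Vcam1 was lower (log2 -1.81).

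A small state outside that comparison had the highest Itga5 of the fibroblast-like sub-clusters. Activated-like fibroblasts (133 cells, named from Inhba, Ereg and Fosl1) had Itga5 at 574, 700, 631 and 563 CPM, against a median of 97.8 CPM over the 12 fibroblast-like sub-clusters. Hmga2, Areg and Lif, also listed for that state, did not meet the naming rule there. Vcl had 188 CPM (177 to 199) in activated-like cells beside a median of 75.2 CPM, Fermt2 249 CPM (237 to 262) beside 131 CPM, and Itgb3 65.8 CPM (59.5 to 72.7) beside 21.1 CPM. These were the highest values of the 12 sub-clusters for each gene, and their depth was near that of the class, with a median of 42490 counts per cell. Itgav and Itgb1 were at 124 and 617 CPM in the same cells, beside medians of 99.1 and 490 CPM. Itgam, Itgb2 and Fermt3 were highest in 65 mitotic-like fibroblasts, at 140, 197 and 52.4 CPM. All 8 macrophage markers reached 5 CPM there, summing to 2682 CPM, against 220 CPM in fibroblast-like cells as a whole, their median tag count was 971 beside 35, and the part of macrophage RNA was not tested.

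**Figure D5:**
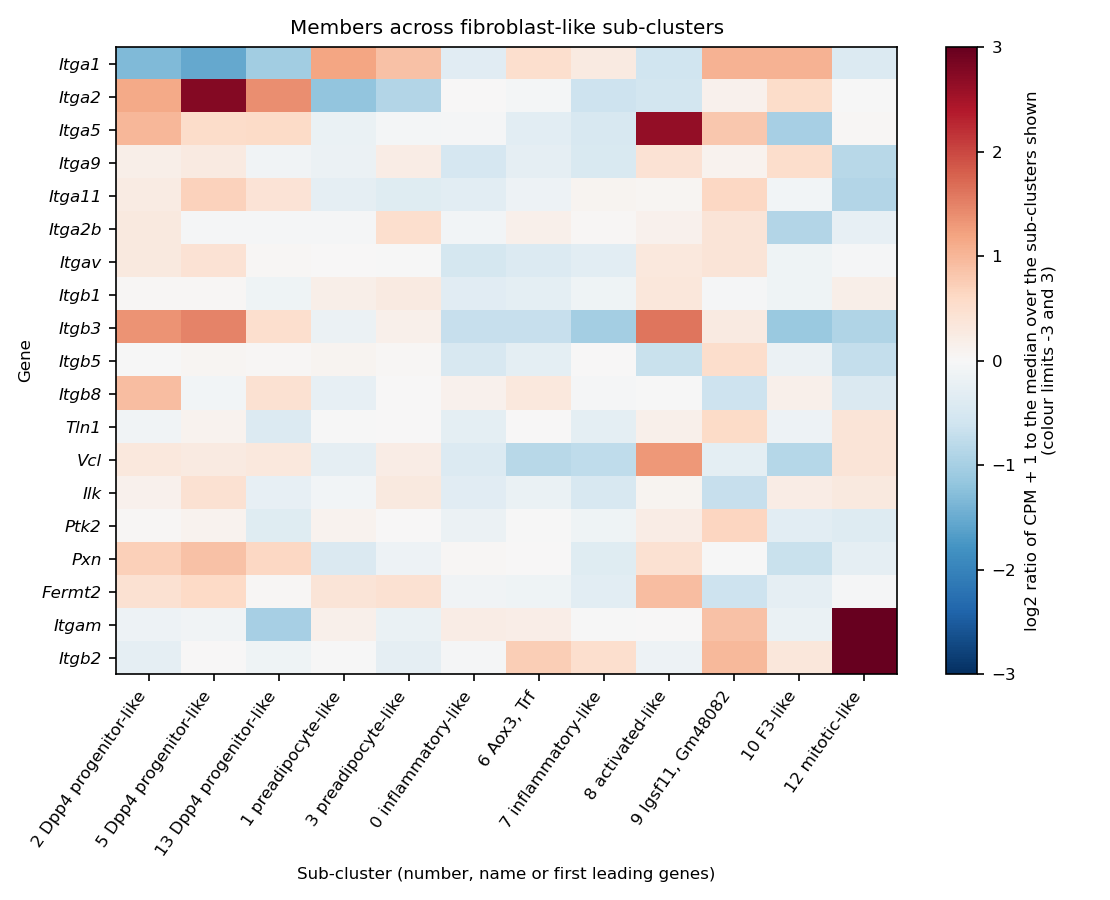
Log2 ratio of CPM + 1 to the median over 12 fibroblast-like sub-clusters, by colour between -3 and 3, with genes in rows and sub-clusters (number, name or leading genes) in columns. Itga1 and Itga2 have opposite colours in Dpp4-progenitor-like and preadipocyte-like columns, Itga5 is high in activated-like cells, and Itgam and Itgb2 are at the upper colour limit in mitotic-like cells.

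Pairs of genes were also counted in the same cells after thinning to 6000 counts, which every cell kept had. A count of both Itgav and Itgb5 was found in 16.8% of macrophage-like, 22% of fibroblast-like, 19.9% of mural-like and 2.54% of endothelial-like cells. Both Itgb1 and Itgb2 were found in 69.9% of macrophage-like and 5.99% of fibroblast-like cells. Both kindlins were found in 1.08% of macrophage-like and 1.19% of fibroblast-like cells. In macrophage-like cells 57.1% had Fermt3 alone and 0.803% Fermt2 alone, and in fibroblast-like cells 47.5% had Fermt2 alone and 2.04% Fermt3 alone. The share of cells with both genes depends on how often each is detected. Whether any pair was found together more or less often than that was not tested. The comparisons that share macrophage-like or fibroblast-like cells are not independent of each other.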

How the data were processed

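One pooled transcript library and its hashtag library were analysed. The authors deposited whole-number counts per gene and cell and tag counts per cell, and per the file headers the cell names hold a hashtag or the word doublet. Tools named in the submitters' processing notes are Bowtie2 2.4.2, cutadapt 3.4 and R (4.1.2 and 3.6.3), with the build GRCm38. Their roles are not given in the sources used here, nor is whether counts stand for reads or molecules. In 68 genes, none of the set, no value from 1 to 4 occurs.

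The authors' doublets were left out, and no other doublet caller was run. Cells needed 200 detected genes and at most 25% mitochondrial counts. Scanpy 1.11.5 and leidenalg 0.10.2 (Python 3.11.15) scaled cells to 10000 counts and clustered them from 2000 variable genes, 30 components and 20 neighbours at resolution 1 with seed 1, with 82 genes of the set and its related lists left out. A name needed 3 markers detected in 25% of cells and raised by a log2 of 1. Sub-clusters with 2 or more leading markers of another class among 10, or with under 20 cells, were left out (292 macrophage-like and 448 fibroblast-like cells). The naming rule was revised several times after clusters and markers, but not values of the set, had been seen. Of the marker and related lists, 7 genes were not analysed here. Left uncompared were 168 unnamed, 30 B-cell-like, 17 mesothelial-like and 13 lymphatic-like cells.

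Counts were summed per class and scaled to CPM. The size rule was used in place of a test. It was run on simulated Poisson counts at the depth of macrophage-like cells, with changes larger than the rule asks. Those counts held no spread between cells or mice, so the run does not show how the rule performs in small groups. Named genes were all 33 of the set, whatever their values, and up to 3 called genes in each direction from each related list, with clusters chosen for mention after their values were seen. The members and lists were chosen with earlier results of these data known. Alternatives changed the pseudocount, filter, scaling, hashtag rule (the tag rule takes cells with 10 or more tag counts and 75% of them from one tag), resolution, size rule and the hashtags used, and 3 were chosen after seeing the data.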

Additional observations from a re-analysis of the deposited data

How the results depend on the processing

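Leaving out each hashtag in turn gave 16 calls in each case for macrophage-like over fibroblast-like cells, 4 for monocyte-like over macrophage-like, 10 to 11 for T-cell-like over macrophage-like, 13 to 14 for endothelial-like over fibroblast-like, 16 to 18 for mural-like over fibroblast-like, 6 to 7 between lipid-associated-like and resident-like macrophages and 2 to 3 between Dpp4-progenitor-like and preadipocyte-like fibroblasts, and 29 to 31 of the 33 genes kept their highest class. A size rule of 2 left 2 calls for monocyte-like, 6 for T-cell-like, 7 for endothelial-like, 6 for mural-like, 1 for lipid-associated-like and 1 for Dpp4-progenitor-like cells, and a size rule of 0.5 gave 7 for Dpp4-progenitor-like cells, since a stricter or looser size changes the count by construction. For Dpp4-progenitor-like cells a filter at 20 CPM left 1 call and the rule on tag counts gave 6, and at Leiden resolution 2.0 lipid-associated-like cells kept 2. Under the tag rule 21 of the 33 genes kept their highest class. Direction turned in endothelial-like over fibroblast-like cells for Itgam (log2 -1.55) and Fermt3 (-1.19) under the tag rule, and for Itgam (-0.043) with sub-clusters led by another class kept. The cause of these changes was not tested.

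No value was obtained for mural-like and lipid-associated-like cells under the tag rule, for lipid-associated-like cells where clusters led by another class, or with 1 such leading marker, were left out, and for Dpp4-progenitor-like cells with states named against the mean. Depth limits Itgb6 and Itga10, and hashtags in stroma rest on a median of 35 tag counts per cell. No paired analysis was possible because the labels give no replicate numbers, and the size rule itself reads each ratio within a hashtag.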
